A study of Homo sapiens with 8 samples.

Results

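The transcription factor NRF2 and the antioxidant enzymes of the cell were followed as a set of 35 genes in cultured human skin fibroblasts whose long noncoding RNA PURPL had been raised or lowered. The set holds NRF2 itself (gene NFE2L2) with its partners, the enzymes it is known to induce, and superoxide dismutases, catalase and glutathione peroxidases. Members were taken by gene name from the 59370 genes shared by the deposited tables, and all 35 were found. All 35 also passed the filter on low values (a mean FPKM of 1 or more across the 4 libraries of an arm), among 14977 genes tested.

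In resting cells the adaptor protein KEAP1 holds NRF2 for degradation. Oxidants and electrophiles disarm KEAP1, and NRF2 then pairs with a small MAF protein such as MAFG at antioxidant response elements (AREs). The genes switched on in this way make glutathione and thioredoxin, supply NADPH, break down heme and store iron. In fibroblasts these enzymes are best known for their part in oxidative stress and in cellular aging, the subject of the series.

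The cells were BJ, a line of skin fibroblasts, and each of 4 groups held 2 libraries. The group OE-PURPL overexpressed PURPL and was set against PCDNA. The group ASO-PURPL carried an antisense oligonucleotide against PURPL and was set against ASO-NC. No label gives a further allele, drug or time point, the passage of the cells or whether replicates were separate cultures, so the p-values reflect only how far these libraries vary, and that variation may be technical. Replicate 1 of the overexpression arm, replicate 1 of the knockdown arm and replicate 2 of all groups stand in 3 separate tables. PURPL stood at 5.42 and 5.73 FPKM in PCDNA, 153 and 238 in OE-PURPL, 16.2 and 9.74 in ASO-NC, and 6.31 and 4.24 in ASO-PURPL, with replicate 1 given first here and below.

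Levels are given as FPKM, a fragment number corrected for the length of the transcript and the size of the library, so that genes can be set beside each other. Fibroblast markers had medians of 289 to 529 FPKM. Of the keratinocyte and epithelial markers, KRT5 and KRT1 did not exceed 0.01 FPKM in any library, while KRT14 reached 2.20 FPKM, EPCAM 2.02 FPKM and KRT10 7.44 to 35.3 FPKM. The melanocyte gene PMEL reached 3.51 FPKM, while the melanocyte genes MLANA, TYR and DCT did not exceed 0.371 FPKM. Of the endothelial genes, PECAM1 reached 1.48 FPKM, VWF 0.278 FPKM and CDH5 0.0424 FPKM. The B cell gene MS4A1 did not exceed 0.01 FPKM. CD68, a lysosomal protein used here as an immune cell marker, ran from 58.4 to 354 FPKM, while PTPRC, CD3E and LYZ did not exceed 0.303 FPKM. Both knockdown-arm libraries of replicate 1 stood apart from those of replicate 2. VIM was at 1205 and 1294 FPKM in them (ASO-NC, then ASO-PURPL) against 2283 and 2064, and LUM at 211 and 252 against 667 and 598.

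Windows from 250 bases before to 50 bases after annotated start sites (RefSeq, GRCh38.p14) were at hand for 28 of the 35 members. They were searched on both strands for the ARE core TGACNNNGC, since this element defines the pathway. It lay in a window of 5 of the 28, namely KEAP1, GCLM, TXNRD1, PGD and ME1. That is 17.9%, against 16.1% of all 27305 genes with a window and 13.3% of all 35116 windows. In a second list of genes from the same pathways, given below, 20 of 59 genes with a window held the core (33.9%). Bases outside these windows were not searched, so a member without a match may hold the element elsewhere. The stretches of the 5 members are printed so that the elements can be read letter by letter. Each runs 5′ to 3′ on the strand of the gene. Capitals mark the ARE core, which opens with TGAC where it lies on the strand of the gene and closes with GTCA where it lies on the other. A further match each in TXNRD1 and ME1 is not shown.
KEAP1, 54 bases before the start, minus strand, chr19:10502807-10502835: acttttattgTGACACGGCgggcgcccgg
KEAP1, 31 bases before the start, minus strand, chr19:10502784-10502812: gcccggctctGCTTAGTCAtggtgacctg
GCLM, 34 bases before the start, minus strand, chr1:93909446-93909474: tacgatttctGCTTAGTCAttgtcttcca
TXNRD1, 99 bases before the start, plus strand, chr12:104215670-104215698: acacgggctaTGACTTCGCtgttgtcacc
TXNRD1, 102 bases before another start, plus strand, chr12:104286920-104286948: gtggatttctGCTTTGTCAttctgactct
PGD, 201 bases before the start, plus strand, chr1:10398853-10398881: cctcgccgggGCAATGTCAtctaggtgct
ME1, 137 bases before the start, minus strand, chr6:83431170-83431198: tctcctgccaTGACTCAGCgcttctcgca

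KEAP1 and GCLM held the same core, TGACTAAGC, on the strand opposite to the gene. The ME1 core, TGACTCAGC, contains the AP-1 motif TGACTCA, and OSGIN1 held the AP-1 motif without the core. The AP-1 motif (TGACTCA or TGAGTCA, both strands) lay in a window of 2 of the 28 members (7.14%), against 6.05% of all genes with a window and 4.95% of all windows. A match describes these letters and not binding. No window was at hand for ABCC1, GSR, SOD1, SLC7A11, PRDX1, FTH1 or HMOX1.

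The members spanned a wide range of levels, and the iron-storing ferritins led. FTH1, the ferritin heavy chain, had the highest mean (5490 FPKM over 8 libraries). FTL, the ferritin light chain, came next (3720 FPKM). Their ranges overlapped, and the FPKM of FTH1 was 1.25 to 1.79 times that of FTL. The ferritins made up 55.4% to 68.9% of the summed FPKM of the set, and the set made up 1.99% to 3.19% of each library's sum.

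Below the ferritins came SQSTM1, an autophagy receptor that also binds KEAP1 (mean 752 FPKM), AKR1B1, an aldose reductase (661 FPKM), SOD2, the mitochondrial superoxide dismutase (548 FPKM), and TXN, thioredoxin (491 FPKM). AKR1C2 and AKR1C3 (means of 1.96 and 0.813 FPKM), aldo-keto reductases that act on steroids, were the lowest. In the order of the 35 means, the 8-library ranges of neighbours were apart at 3 places only: between FTL and SQSTM1, between GPX1 and GPX4, and between GPX3 and AKR1C2. NQO1, a quinone reductase and classical NRF2 target, was the steadiest member, with 1.19-fold between its lowest and highest library. SOD2 was the most variable, from 125 FPKM in the lowest library to 1001 FPKM in the highest.

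**Figure D1:**
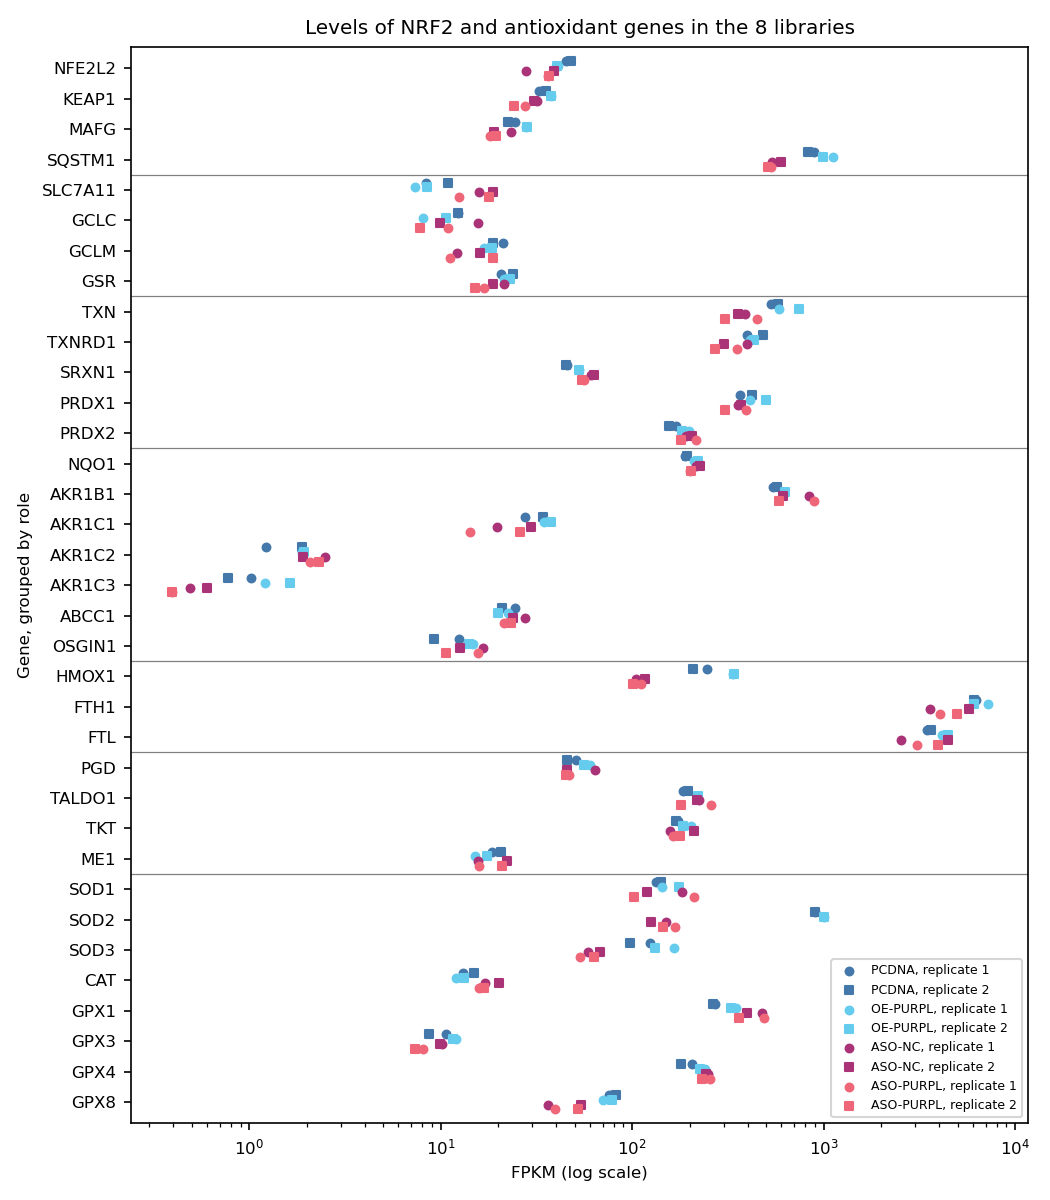
Level of each of the 35 genes (FPKM, log scale) in the 8 libraries, grouped by role; colours mark the groups, circles replicate 1 and squares replicate 2. The ferritins stand at the right, AKR1C2 and AKR1C3 at the left, and SOD2 splits into 4 libraries at 897 to 1001 FPKM and 4 at 125 to 167 FPKM.

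Some of these values carry uncertainty from related sequence. Pseudogene rows named after a member existed for 11 of the 35 genes. Their summed FPKM reached at most 1.84% of that of the parent gene in any library, the highest share being that of TXN. AKR1C1, AKR1C2 and AKR1C3 are close relatives between which reads can be split wrongly. Neither the labels nor the notes say whether strand was used in counting, and NFE2L2, SQSTM1, PRDX1, FTH1 and SOD2 overlap a tested gene on the opposite strand. For SOD2 this is WTAP, which reached 87.3 FPKM. MAFG, TXNRD1 and PRDX2 overlap a tested gene on the same strand. For MAFG this is SIRT7, which reached 37.8 FPKM, while MAFG itself reached 28.3 FPKM.

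Overexpression of PURPL was set against PCDNA inside each table, as the log2 ratio of FPKM plus 1, to ask which members follow PURPL. No member passed the test (limma, Benjamini-Hochberg adjusted p under 0.05 over all genes, lowest adjusted p = 0.324), against 0.0267% of all genes tested (4 of 14977). At an unadjusted p under 0.05, 6 members were higher and 2 lower, which is 17.1% and 5.71% of the set, against 8.25% and 5.51% of all genes. In both pairs 24 members were higher (68.6% of the set, against 32.6% of all genes) and 8 lower (22.9%, against 31.1%). The median log2 change of the set was 0.20 (0.18 and 0.16 in the pairs), against 0.00 over all genes tested. With the libraries brought to the same distribution by quantile normalization, 17 members were higher and 10 lower in both pairs (48.6% and 28.6%, against 30% and 32.7% of all genes).

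HMOX1, the oxygenase that degrades heme, had the largest difference. It stood at 247 and 209 FPKM in PCDNA and at 336 and 341 FPKM in OE-PURPL. The OE-PURPL libraries lay above both controls, by 0.57 on the log2 scale (SE 0.12, adjusted p = 0.324, limma), a difference that did not pass. In the knockdown arm HMOX1 stood lower, at 105 and 117 FPKM in ASO-NC and 111 and 101 FPKM in ASO-PURPL.

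SOD3, the superoxide dismutase that is secreted into the matrix, stood at 124 and 97.3 FPKM in PCDNA and at 164 and 131 FPKM in OE-PURPL. Each OE-PURPL library lay above the PCDNA library of its table, by 0.41 and 0.43 on the log2 scale (mean 0.42, SE 0.08, adjusted p = 0.324, limma). GPX1, the cytosolic glutathione peroxidase, stood at 272 and 265 FPKM in PCDNA and at 348 and 330 FPKM in OE-PURPL, 0.33 higher (SE 0.10, adjusted p = 0.324). GPX4, which reduces lipid peroxides, stood at 205 and 180 FPKM against 239 and 227 FPKM after overexpression, 0.28 higher (SE 0.09, adjusted p = 0.331). Neither GPX1 nor GPX4 overlapped between its PCDNA and OE-PURPL libraries, and none of these differences passed.

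OSGIN1, a growth inhibitor induced by oxidative stress, stood at 12.4 and 9.25 FPKM in PCDNA and at 14.8 and 13.97 FPKM in OE-PURPL (0.39 higher, SE 0.12, adjusted p = 0.329). SQSTM1 stood at 893 and 825 FPKM in PCDNA and at 1124 and 993 FPKM in OE-PURPL (0.30 higher, SE 0.11, adjusted p = 0.35). FTL stood at 3465 and 3647 FPKM in PCDNA and at 4143 and 4467 FPKM in OE-PURPL (0.28 higher, SE 0.17, adjusted p = 0.494). GPX3, a secreted glutathione peroxidase, stood at 10.6 and 8.63 FPKM in PCDNA and at 11.9955 and 11.5 FPKM in OE-PURPL (0.27 higher, SE 0.12, adjusted p = 0.393). No difference passed, and in each of these genes both OE-PURPL libraries lay above both PCDNA libraries. The same held for 23 members in all (65.7%, against 23.5% of all genes), and both lay below for 4 (11.4%, against 23.4%). AKR1C3 had ratios of 0.13 and 0.56 at levels of 1.02 and 0.773 FPKM in PCDNA and 1.21 and 1.62 FPKM in OE-PURPL (adjusted p = 0.506, limma). Its knockdown-arm levels were lower still, 0.489 and 0.603 FPKM in ASO-NC and 0.396 and 0.393 FPKM in ASO-PURPL.

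Among the members for glutathione synthesis and reduction, 3 of 4 were lower in both pairs (75%, against 31.1% of all genes), and none passed. GCLC, the catalytic subunit of the rate-limiting glutamate-cysteine ligase, stood at 12.3 and 12.2 FPKM in PCDNA and at 8.06 and 10.7 FPKM in OE-PURPL (mean log2 change -0.37, SE 0.14, adjusted p = 0.356, limma). Its modifier subunit GCLM had ratios of -0.31 and -0.01. SLC7A11, the transporter that brings in cystine, had -0.16 and -0.33, and GSR, glutathione reductase, had 0.06 and -0.05 (20.6 and 23.9 FPKM in PCDNA, 21.5 and 22.98 FPKM in OE-PURPL). With the trend on transcript length and GC content removed, GCLC stood at -0.28 and GCLM at 0.01, and SLC7A11 was at -0.0037 on the log2 scale. GSS, glutathione synthetase, from a wider list of pathway genes, was higher in both pairs (0.05 and 0.22).

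Among the regulators, NFE2L2 stood at 45.3 and 47.7 FPKM in PCDNA and at 40.9 and 40.7 FPKM in OE-PURPL (mean log2 change -0.18, SE 0.13, adjusted p = 0.548, limma). KEAP1 stood at 32.6 and 35.3 FPKM in PCDNA and at 37.6 and 37.7 FPKM in OE-PURPL (0.15 higher, SE 0.09, adjusted p = 0.513). MAFG stood at 24.4 and 22.3 FPKM in PCDNA and at 27.7 and 28.3 FPKM in OE-PURPL (0.25 higher, SE 0.12, adjusted p = 0.424). None of these differences passed. With the trend on length and GC content removed, NFE2L2 stood at -0.16, MAFG at 0.21 and KEAP1 at -0.0033 on the log2 scale.

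In the thioredoxin system, TXN (0.14 and 0.36), the sulfiredoxin SRXN1 (0.20 and 0.21) and the peroxiredoxins PRDX1 (0.16 and 0.24) and PRDX2 (0.23 and 0.23) were higher in both pairs, while the reductase TXNRD1 had 0.06 and -0.15. Of the NADPH-supplying enzymes, PGD and TALDO1 of the pentose phosphate pathway had mean log2 changes of 0.26 and 0.20, and TKT of 0.17. ME1, the malic enzyme, was lower in both pairs (-0.29 and -0.24, adjusted p = 0.355, limma). NQO1 had 0.15 and 0.19 and AKR1B1 0.19 and 0.15. SOD1 had 0.10 and 0.31, and AKR1C2, at low levels, 0.38 and 0.02. CAT (catalase, -0.12 and -0.16), GPX8, a peroxidase of the endoplasmic reticulum (-0.10 and -0.07), and ABCC1, an exporter of glutathione conjugates (-0.11 and -0.07), were lower in both pairs. AKR1C1, at 27.7 and 34.1 FPKM in PCDNA and 34.6 and 37.8 FPKM in OE-PURPL, had 0.31 and 0.14. With the trend on length and GC content removed, the mean log2 changes of TXN, SRXN1, PRDX1 and PRDX2 were 0.21, 0.11, 0.05 and 0.03. Those of PGD, TALDO1, TKT and ME1 were then 0.12, -0.01, 0.19 and -0.15, and TXNRD1 stood at 0.06. NQO1 stood at 0.19, AKR1B1 at 0.02, SOD1 at 0.04, CAT at -0.14, GPX8 at 0.02 and ABCC1 at -0.08. AKR1C1 moved from 0.23 to 0.41 and AKR1C2 from 0.20 to 0.32.

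**Figure D2:**
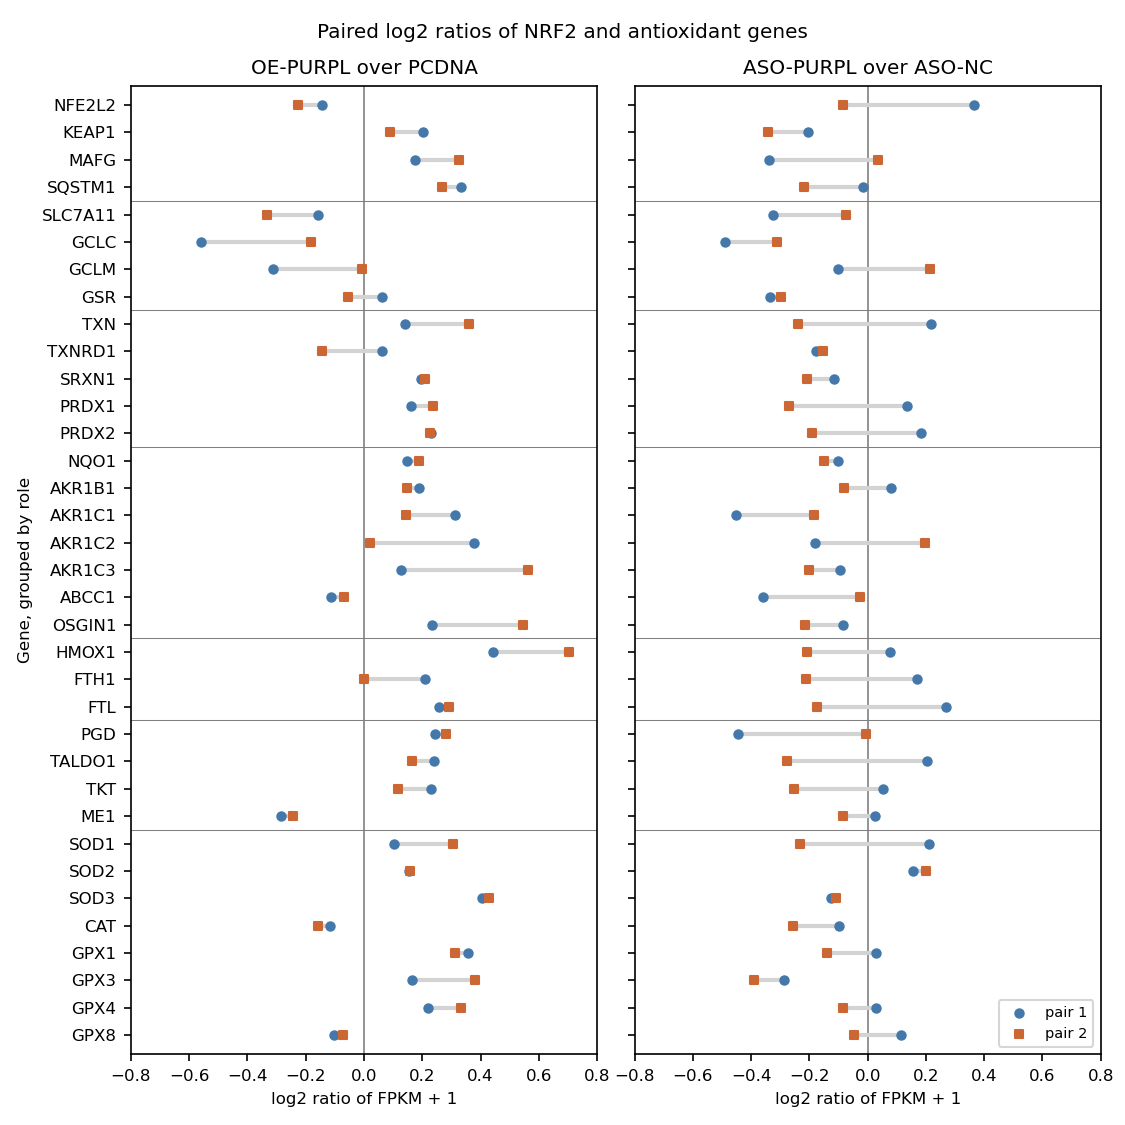
Log2 ratio of FPKM plus 1 for each of the 35 genes, OE-PURPL over PCDNA on the left and ASO-PURPL over ASO-NC on the right; circles are pair 1, squares pair 2, and grey bars join them. On the left 24 genes lie above 0 in both pairs and 8 below; on the right 1 lies above in both and 16 below.

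The overexpression ratios tended to be higher for transcripts that were shorter and richer in GC, with exceptions among the members. Over the 35 members the Spearman correlation of the ratio with GC content was 0.63 and 0.62 in the 2 pairs, and with transcript length -0.38 and -0.58. Over 13339 genes tested it was 0.46 and 0.37 with GC content and -0.34 and -0.36 with length. These points share their libraries, and no test was made. Members were shorter and richer in GC than other genes, with medians of 2698 bases and 52.9% against 3484 bases and 48.5%. With this trend removed, the median log2 change of the set was 0.06, and 18 members were higher and 5 lower in both pairs (51.4% and 14.3%, against 29.2% and 29% of the genes then tested). HMOX1 then stood at 0.37, SOD3 at 0.15, GPX1 at 0.06 and GPX4 at 0.01 on the log2 scale. SQSTM1 stood at 0.17, OSGIN1 at 0.19, FTL at 0.07 and GPX3 at 0.07. SOD2, with the longest annotated transcript of the set (14266 bases), moved from 0.16 to 0.38. Length and GC content are those of the longest annotated transcript, and which transcript was expressed was not examined. The values with the trend removed, that of SOD2 among them, rest on this choice.

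**Figure D3:**
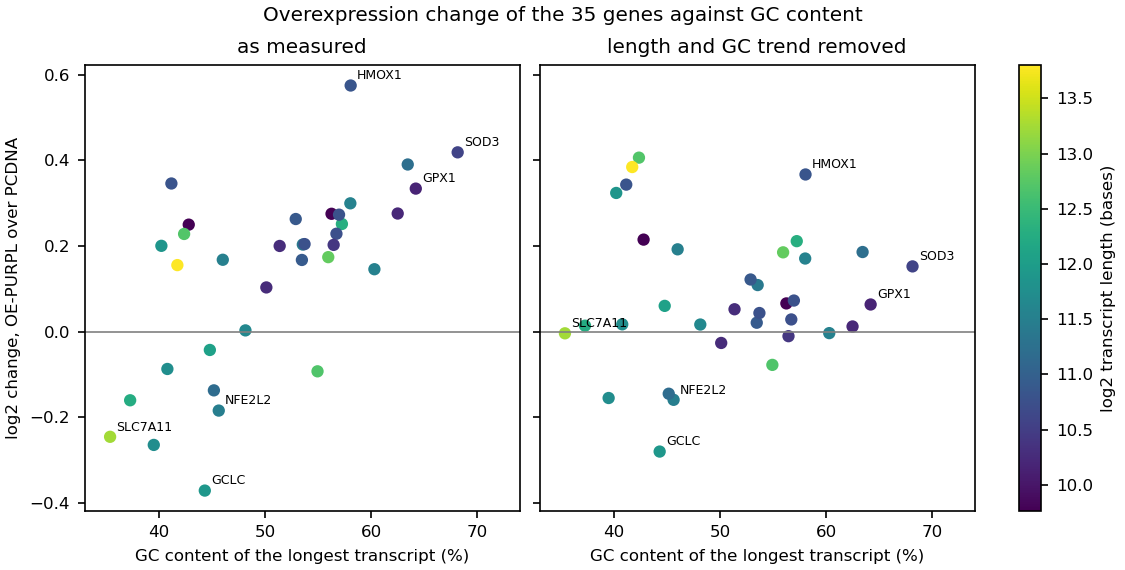
Mean log2 change of the 35 genes after overexpression against the GC content of the longest transcript, as measured (left) and with the trend on length and GC content removed (right); colour gives log2 transcript length. On the left the changes climb with GC content from SLC7A11 to SOD3 and GPX1; on the right the median is 0.06 and HMOX1 stands at 0.37.

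After knockdown of PURPL, compared with ASO-NC, no member passed (limma, lowest adjusted p = 0.587), as was so for all 14977 genes tested (0%). At an unadjusted p under 0.05, 0 members were higher and 5 lower (0% and 14.3% of the set, against 3.54% and 4.64% of all genes, 8.18% in all). In both pairs 16 members were lower (45.7%, against 33.4% of all genes) and 1 higher (2.86%, against 19.3%), while 18 disagreed between the pairs. The median log2 change was -0.10 (-0.09 in the pair of replicate 1 and -0.19 in that of replicate 2), against -0.04 over all genes.

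GCLC had the largest mean difference. It stood at 15.6 and 9.93 FPKM in ASO-NC and at 10.9 and 7.81 FPKM in ASO-PURPL (mean log2 change -0.40, SE 0.14, adjusted p = 0.587, limma). Each ASO-PURPL library lay below the ASO-NC library of its table, but the groups overlapped. GSR stood at 21.4 and 18.8 FPKM in ASO-NC and at 16.7 and 15.1 FPKM in ASO-PURPL (-0.32, SE 0.10, adjusted p = 0.587). GPX3 stood at 10.1 and 9.90 FPKM in ASO-NC and at 8.10 and 7.31 FPKM in ASO-PURPL (-0.34, SE 0.12, adjusted p = 0.587). For both GSR and GPX3 the ASO-PURPL libraries lay below both ASO-NC libraries, by amounts that did not pass. This held for 9 members in all (25.7%, against 13.1% of all genes), and both lay above for 0 (0%, against 8.37%).

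KEAP1 stood at 31.9 and 30.7 FPKM in ASO-NC and at 27.6 and 24.03 FPKM in ASO-PURPL (-0.27, SE 0.09, adjusted p = 0.587, limma). AKR1C1, the most abundant AKR1C gene, stood at 19.7 and 29.5 FPKM in ASO-NC and at 14.2 and 25.8 FPKM in ASO-PURPL (-0.32, SE 0.11, adjusted p = 0.587). KEAP1 did not overlap between the groups, whereas AKR1C1 differed more between replicates than between treatments. PGD, ABCC1, SLC7A11 and CAT were lower in both pairs by smaller means. PGD stood at 64.2 and 45.5 FPKM in ASO-NC and at 46.95 and 45.3 FPKM in ASO-PURPL, so that nearly all of its difference lay in replicate 1. ABCC1 stood at 27.7 and 23.8 FPKM in ASO-NC and at 21.4 and 23.4 FPKM in ASO-PURPL (-0.36 and -0.02), again mostly in replicate 1. SLC7A11 had ratios of -0.33 and -0.07, and CAT, at 17.1 and 20.2 FPKM in ASO-NC and 15.9 and 16.7 FPKM in ASO-PURPL, of -0.10 and -0.26.

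NFE2L2 stood at 27.8 and 39.1 FPKM in ASO-NC and at 36.1 and 36.8 FPKM in ASO-PURPL, ratios of 0.36 and -0.08. MAFG had ratios of -0.34 and 0.03, with 23.2 and 18.9 FPKM in ASO-NC and 18.2 and 19.4 FPKM in ASO-PURPL. SQSTM1 had -0.02 and -0.22, with 538 and 599 FPKM in ASO-NC and 532 and 514 FPKM in ASO-PURPL. Among the regulators KEAP1 and SQSTM1 were lower in both pairs. SOD2 was the member higher in both pairs (0.16 and 0.20, SE 0.09 of the mean, adjusted p = 0.622, limma).

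Abundant short transcripts had opposite signs in the 2 knockdown pairs. FTH1 had ratios of 0.17 and -0.21, FTL 0.27 and -0.17, TXN 0.22 and -0.24, PRDX1 0.14 and -0.27, TALDO1 0.20 and -0.28, and SOD1, the cytosolic superoxide dismutase, 0.21 and -0.23. Over the 35 members the Spearman correlation of the knockdown ratio with transcript length was -0.53 in pair 1 and 0.34 in pair 2, and over 13339 genes it was -0.17 and 0.20. The means of these genes therefore average ratios of opposite sign.

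The difference between the overexpression and the knockdown change was tested in the same model. No member passed (limma, lowest adjusted p = 0.35), against 0.02% of all genes (3 of 14977). At an unadjusted p under 0.05 the difference was above 0 for 10 members and below 0 for 0 (28.6% and 0%, against 8.52% and 4.47% of all genes). The median difference was 0.26 on the log2 scale, against 0.05 over all genes, and it was 0.13 without replicate 2 of ASO-PURPL and ASO-NC and 0.36 without their replicate 1. Higher in both overexpression pairs and lower in both knockdown pairs were 10 members: KEAP1, SQSTM1, SRXN1, NQO1, AKR1C1, AKR1C3, OSGIN1, PGD, SOD3 and GPX3. That is 28.6% of the set, against 12.5% of all genes. The reverse pattern held for 0 members, against 6.85% of all genes.

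SOD3 and HMOX1 had the lowest p of these differences, at 0.54 (SE 0.11) and 0.64 (SE 0.16) on the log2 scale, each with an adjusted p = 0.35 (limma). GPX3 had 0.61 (SE 0.17, adjusted p = 0.35) and KEAP1 0.42 (SE 0.13, adjusted p = 0.365). With the length and GC trend removed, the differences were 0.23 for SOD3, 0.43 for HMOX1, 0.41 for GPX3 and 0.26 for KEAP1. The median difference of the set was then 0.24. The arms differed in their controls as well, so the perturbation and the arm cannot be told apart in this contrast.

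The control libraries PCDNA and ASO-NC were then compared, to show the baseline from which each perturbation started. Replicate 2 of both stands in the same table, and replicate 1 in separate tables, so the differences are given per replicate with no test. SOD2 was the member with a log2 difference of at least 1 in both replicates, and it was higher in PCDNA. That is 2.86% of the set, against 4.71% of all genes higher and 2.94% lower by this rule. In both replicates 14 members were higher in PCDNA (40% of the set, against 35.7% of all genes) and 12 lower (34.3%, against 35.1%). The 14 include AKR1C3, which passed the filter on low values only through the overexpression arm, where it is high. The median difference was 0.07 on the log2 scale, against -0.02 over all genes. These shares lie near those of all genes. With the length and GC trend removed, HMOX1 (1.41 and 1.00) and SLC7A11 (-1.14 and -1.09) were past 1 in both replicates too.

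SOD2 stood at 898 and 897 FPKM in PCDNA and at 150 and 125 FPKM in ASO-NC, log2 differences of 2.58 and 2.83. It stood at 999 and 1001 FPKM in OE-PURPL and at 167 and 144 FPKM in ASO-PURPL, so the arms did not overlap in any library. Its mean difference exceeded that of 99.2% of the genes tested. SOD2 lies on chromosome 6, 159669057 to 159745186 on the minus strand (GENCODE 29, GRCh38), and is known as a gene that inflammatory cytokines induce through NF-kB. Of its 4 RefSeq windows, the 250 bases before the start at position 159693241 are printed, since this window holds the most copies of the GC box GGGCGG, the motif of SP1-type factors. Capitals mark the 6 copies found on either strand, some of which overlap. The motif lies in 45.0% of all windows.
SOD2, minus strand, chr6:159693242-159693491: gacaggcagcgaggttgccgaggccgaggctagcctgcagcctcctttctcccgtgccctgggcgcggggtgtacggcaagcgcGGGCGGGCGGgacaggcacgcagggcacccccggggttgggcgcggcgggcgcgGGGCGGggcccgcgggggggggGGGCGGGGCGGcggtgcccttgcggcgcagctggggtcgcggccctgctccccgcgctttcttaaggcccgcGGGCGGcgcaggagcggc

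Of the other superoxide dismutases, SOD3 was also higher in PCDNA, by less, and SOD1 had no common direction. SOD1 stood at 133 and 142 FPKM in PCDNA and at 182 and 120 FPKM in ASO-NC, with differences of opposite sign (-0.45 and 0.24). SOD3 stood at 124 and 97.3 FPKM in PCDNA and at 58.6 and 67.9 FPKM in ASO-NC, 2.11-fold and 1.43-fold higher, with 53.6 and 62.9 FPKM in ASO-PURPL, and its arms did not overlap either. SOD2 had 5.71 to 6.96 times the FPKM of SOD1 in the 4 overexpression-arm libraries, and 0.792 to 1.41 times in the 4 knockdown-arm libraries. It was below SOD1 in both knockdown-arm libraries of replicate 1 and above it in those of replicate 2.

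**Figure D4:**
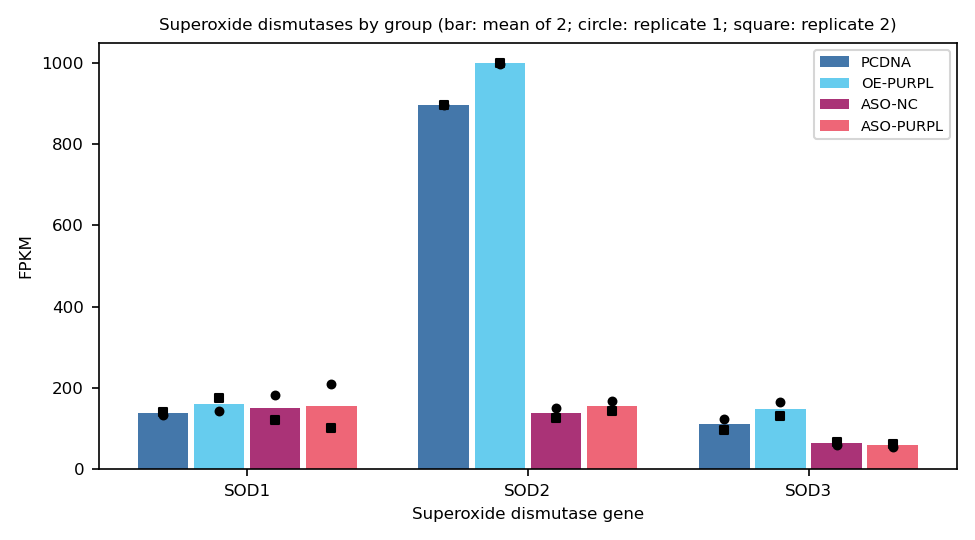
FPKM of the superoxide dismutase genes SOD1, SOD2 and SOD3 by group; bars are the mean of 2 libraries, circles replicate 1 and squares replicate 2. SOD2 stands at 897 to 1001 FPKM in PCDNA and OE-PURPL and at 125 to 167 FPKM in ASO-NC and ASO-PURPL.

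HMOX1 was 2.34-fold and 1.78-fold higher in PCDNA than in ASO-NC (log2 differences of 1.22 and 0.83). GPX8 stood at 75.5 and 82.4 FPKM in PCDNA and at 36.3 and 53.9 FPKM in ASO-NC (1.04 and 0.60), with 70.3 and 78.3 FPKM in OE-PURPL and 39.3 and 52.1 FPKM in ASO-PURPL. TXN stood at 529 and 576 FPKM in PCDNA, 582 and 740 in OE-PURPL, 386 and 359 in ASO-NC, and 449 and 303 in ASO-PURPL. SQSTM1 (0.73 and 0.46), TXN (0.45 and 0.68), NFE2L2 (0.68 and 0.28) and GCLM (0.75 and 0.21) were higher in PCDNA in both replicates too. GCLM stood at 21.1 and 18.6 FPKM in PCDNA and at 12.1 and 15.9985 FPKM in ASO-NC, and at 16.8 and 18.5 FPKM in OE-PURPL and 11.2 and 18.7 FPKM in ASO-PURPL. Among these genes only GCLM overlapped between the 4 libraries of each arm.

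Lower in PCDNA were SLC7A11, at 8.32 and 10.9 FPKM against 15.8 and 18.8 FPKM (-0.85 and -0.74), and GPX1 (-0.81 and -0.58), which stood at 477 and 398 FPKM in ASO-NC. With the trend removed the mean difference of GPX1 was -0.35, from -0.70. SLC7A11 stood at 7.37 and 8.44 FPKM in OE-PURPL and at 12.4 and 17.8 FPKM in ASO-PURPL. GPX1 stood at 487 and 361 FPKM in ASO-PURPL. SRXN1 (-0.41 and -0.47), CAT (-0.35 and -0.41) and OSGIN1 (-0.39 and -0.40) were also lower in PCDNA. NQO1 differed by -0.18 and -0.23, whereas TXNRD1, at 396 and 480 FPKM in PCDNA and 397 and 299.9 FPKM in ASO-NC, differed in replicate 2 alone (0.68). Classical NRF2 targets thus stood on both sides of 0. Across all 8 libraries, 10 of the 35 members were higher in every overexpression-arm library than in any knockdown-arm library, and 4 were lower in every one. Over all genes tested the shares were 21.5% and 17.1% (3217 and 2555 of 14977). AKR1C3, among these 10, passed the filter on low values only through the overexpression arm, where it is high.

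The ferritins show how the baseline depended on the replicate. FTH1 stood at 6212 and 6115 FPKM in PCDNA, 7177 and 6108 in OE-PURPL, 3600 and 5721 in ASO-NC, and 4046 and 4943 in ASO-PURPL. The difference between PCDNA and ASO-NC was 0.79 in replicate 1 and 0.10 in replicate 2. For FTL, at 2539 and 4474 FPKM in ASO-NC, it was 0.45 and -0.29. AKR1B1 stood at 545 and 570 FPKM in PCDNA, 621 and 631 in OE-PURPL, 839 and 616 in ASO-NC, and 887 and 583 in ASO-PURPL. Its differences between the controls were -0.62 and -0.11.

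**Figure D5:**
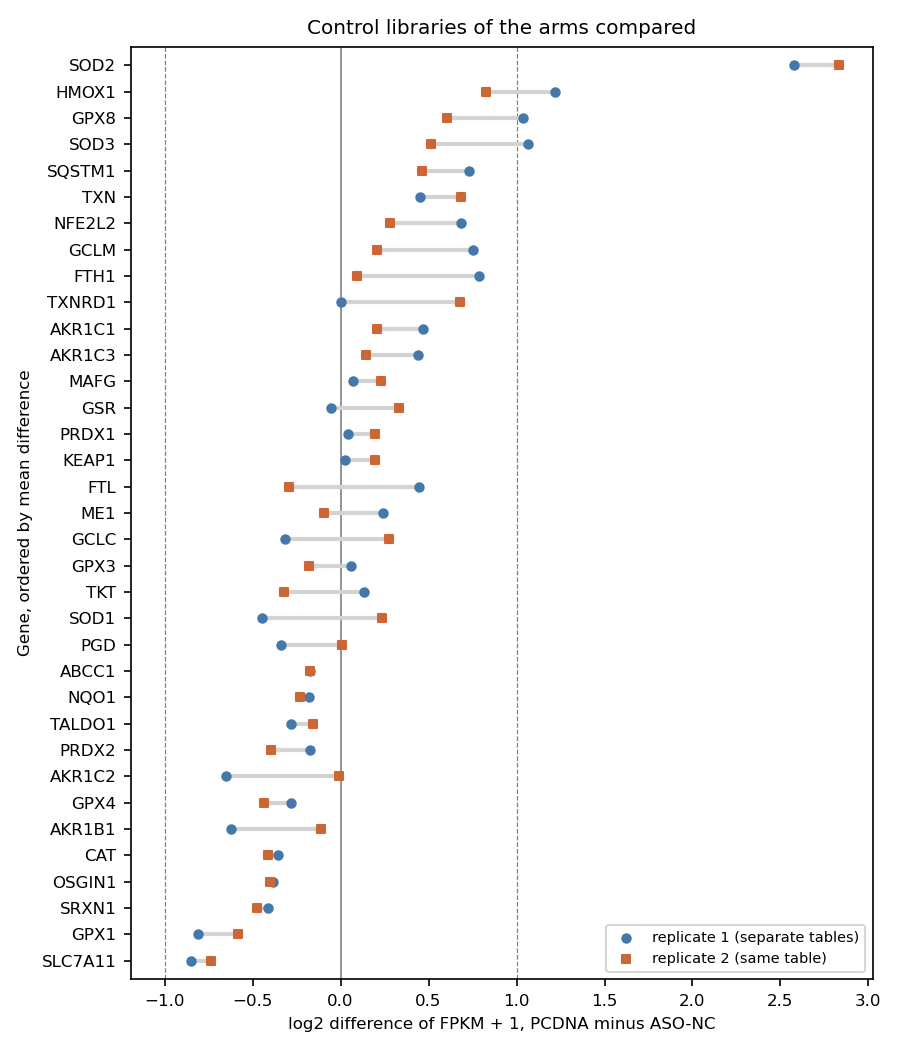
Log2 difference of FPKM plus 1 between PCDNA and ASO-NC for each of the 35 genes, ordered by the mean; circles are replicate 1 (separate tables), squares replicate 2 (same table), and dashed lines mark a difference of 1. SOD2 stands alone at 2.58 and 2.83, and SLC7A11 and GPX1 lie at the lower end.

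Other gene groups moved with the same contrast. The median level of 20 interferon-stimulated genes was 327 and 331 FPKM for PCDNA and 6.86 and 8.65 FPKM for ASO-NC, and all 20 were higher in PCDNA in both replicates. For 20 mitosis genes the medians were 11.8 and 12.9 FPKM (PCDNA) and 3.47 and 3.36 FPKM (ASO-NC), with all 20 higher. For NF-kB targets they were 28.00 and 24.4 FPKM (PCDNA) and 14.7 and 13.5 FPKM (ASO-NC), with 13 of the 14 tested higher. Of all genes tested, 35.7% were higher in PCDNA in both replicates. These lists were chosen with earlier results of these data known, so their counts are a description only. CD68 was at 315 and 284 FPKM for PCDNA and at 77.7 and 65.1 FPKM for ASO-NC. The part of these programmes in the differences of SOD2, HMOX1 and the other members was not tested. In bulk RNA, more cells of a type and more RNA per cell cannot be told apart.

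A second list of 73 genes from the same pathways was compared in the same way, and 70 of these passed the filter on low values. After overexpression 0 passed (limma, lowest adjusted p = 0.324), with 13 higher and 2 lower at an unadjusted p under 0.05 (18.6% and 2.86%, against 8.25% and 5.51% of all genes). In both pairs 37 were higher and 12 lower (52.9% and 17.1%, against 32.6% and 31.1%), and the median log2 change was 0.15. MAFF, a small MAF protein like MAFG, stood at 86.4 and 79.2 FPKM in PCDNA and at 117 and 117 FPKM in OE-PURPL (0.49 higher, SE 0.08, adjusted p = 0.324). NNT, the mitochondrial enzyme that makes NADPH from NADH, stood at 15.2 and 16.1 FPKM in PCDNA and at 10.3 and 12.1 FPKM in OE-PURPL (-0.45, SE 0.13, adjusted p = 0.326). BLVRB (0.21 and 0.68), a biliverdin reductase, the peroxiredoxin PRDX5 (0.61 and 0.24) and the methionine sulfoxide reductase MSRB3 (-0.68 and -0.26) were the others with the largest ratios of equal sign. With the length and GC trend removed, the mean of MAFF was 0.35, of NNT -0.26, of BLVRB 0.22, of PRDX5 0.17 and of MSRB3 -0.37.

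After knockdown 0 of the 70 passed (lowest adjusted p = 0.587), with 0 higher and 3 lower at an unadjusted p under 0.05 (4.29% lower, against 4.64% of all genes), and the median was -0.09. In both pairs 26 were lower and 2 higher (37.1% and 2.86%, against 33.4% and 19.3%). TRIM16, a ubiquitin ligase, had ratios of -0.36 and -0.31, MGST2, a microsomal glutathione transferase, -0.26 and -0.34, and IDH1, the cytosolic isocitrate dehydrogenase that makes NADPH, -0.28 and -0.27. UGDH, which makes UDP-glucuronate, had -0.28 and -0.23.

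Between the controls, 2 of the 70 were higher in PCDNA by at least 1 on the log2 scale in both replicates and 1 was lower, against 4.71% and 2.94% of all genes. NFE2L3, a relative of NRF2, stood at 10.2 and 10.5 FPKM in PCDNA and at 1.65 and 2.45 FPKM in ASO-NC. TXNIP, which binds and inhibits thioredoxin, stood at 76.1 and 80.4 FPKM against 21.8 and 23.4 FPKM. ALDH3A1, an aldehyde dehydrogenase, was the lower gene, at 0.383 and 0.383 FPKM against 2.05 and 1.95 FPKM, and it passed the filter on low values only through the knockdown arm, where it is high. AKR1B10, a reductase related to AKR1B1, had differences of -1.35 and -0.86 at levels up to 1.57 FPKM in these controls, and GGT5, a gamma-glutamyl transferase, 1.10 and 0.88 at up to 1.58 FPKM. These 2 likewise passed the filter only through the arm where they are high.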

How the data were processed

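RNA of 8 BJ libraries was made into mRNA libraries, per the labels' protocols, and processed with STAR and Cufflinks on hg38, per the submitters' processing notes; tool versions and the annotation were not stated there. The authors deposited FPKM (the unit was inferred from the values) in 3 tables of 60635 rows, and log2 fold changes for replicate 1, which match a log2 ratio with 1 added to each FPKM (largest gap 0.00148). For repeated names the row of highest mean was kept. Treated libraries were compared with the control of their own table, with a pseudocount of 1, which understates changes of low genes. The 4 ratios were fitted in limma 3.58.1 (R 4.3.3, eBayes with a trend, 2 residual and 3.34 prior degrees of freedom), after a test on simulated data. Adjusted p-values are over all 14977 genes tested. The pairing follows the tables. Deviations of same-numbered libraries correlated with r = 0.14 (overexpression) and 0.49 (knockdown) across genes. Read numbers are not given. The most common ratio between low values, taken as 1 read against 1 read, put depths at 0.765 to 1.29 times that of PCDNA replicate 2. Length and GC content were those of the longest transcript in GENCODE 29, which held 13339 of the names tested (89.1%). All 35 genes are in the counts and figures. Genes chosen for their levels were the regulators and, by size with equal sign in both pairs or replicates, the first 10 of each comparison. Some of these are not given in every library, and further values were added after they were seen. Members and lists were chosen with earlier results of these data known. The values of a gene of the second list are not reported here.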

Additional observations from a re-analysis of the deposited data

How the results depend on the processing

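No member passed the test under any of 14 alternatives for overexpression or knockdown or 13 for their difference; the lowest adjusted p-values were 0.226, 0.474 and 0.277 (limma). With no replicate block, on quantile-normalized libraries, 0 members passed, and the median log2 change of the set was 0.069 for overexpression and 0.088 for the difference. The overexpression median was 0.17 with a pseudocount of 5 and 0.060 with the length and GC trend removed, where 5 members were lower in both pairs. With a pair left out, it ran from 0.16 to 0.20, the knockdown median from -0.19 (without replicate 1 of ASO-PURPL and ASO-NC) to -0.086 (without their replicate 2), and that of the difference from 0.13 (without their replicate 2) to 0.36 (without their replicate 1). Between PCDNA and ASO-NC, 3 members (SOD2, HMOX1 and SLC7A11) differed by at least 1 with that trend removed, and 1 without replicate 1 or 4 without replicate 2, the median then being 0.10 or 0.03. With quantile normalization that median was -0.027. Over all genes, 0 to 5 were called for overexpression (4 as reported), 0 to 9 for knockdown (0) and 0 to 10 for the difference (3). The cause of these shifts was not tested. With read numbers unknown, no counting error could be given, which limits AKR1C2 and AKR1C3 most; a filter at 5 FPKM removed both.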
